A study of Mus musculus with 8 samples.

Results

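The Hedgehog pathway genes described here are the ligand gene Shh, the receptor gene Ptch1, the signal transducer gene Smo, the co-receptor genes Boc, Cdon and Gas1, and the transcription factor genes Gli1, Gli2 and Gli3. They were chosen by name, and a probe was taken as theirs where its RefSeq accession mapped to the gene. All 9 genes were found, through 13 of the 26762 named probes, among 20284 named genes. RNA of whole mouse skin was hybridised to 8 one-colour oligonucleotide arrays, 4 of Control skin and 4 of DTG skin. By its title the series concerns Musashi1 overexpression; Musashi1 binds RNA and regulates translation. The labels do not spell out DTG and give no strain, transgene, promoter or age, and they call all 8 samples male. Nothing in the labels says that the skins of a group came from separate animals, so p-values cover the spread among these arrays, which may be partly technical.

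Hedgehog ligands bind Patched1, a membrane protein that otherwise keeps Smoothened inactive, and Boc, Cdon and Gas1 help present the ligand to it. Once Smoothened is released it acts at the primary cilium, where Gli2 and Gli3 are turned from repressors toward activators. Gli1 and Ptch1 are themselves transcribed in response, so their mRNA is a usual readout of the pathway. In skin, Sonic hedgehog from the hair follicle epithelium drives follicle growth and signals to the dermal papilla, and an overactive pathway leads to basal cell carcinoma.

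Several properties of the whole data set bear on every value below. The Msi1 probe A_55_P2062688 read between -5.92 and -1.48 on the Control arrays and between 3.85 and 4.16 on the 3 DTG arrays with an accepted spot, while the probe A_51_P296866 read -3.36 to -2.80 in Control and -3.36 to -3.03 in DTG. Levels here and below are log2 signals minus the 75th percentile of the array's own probes. Between 79.5% and 85.1% of spots lay well above background on the Control arrays and between 68.8% and 71.6% on the DTG arrays, and negative-control spots averaged a log2 signal of 2.85 on Control and 4.46 on DTG arrays. Control and DTG arrays lay on different rows of 1 slide, so array row and group cannot be told apart. Xist was high on 2 of 4 Control and 3 of 4 DTG arrays, against the male label, and values with Xist class in the fit are given for Gli1 and the members called. The Y-linked gene Eif2s3y read 1.22 to 1.66 on the arrays of low Xist and -7.79 to -6.18 on those of high Xist. Each group therefore holds skin of more than 1 animal, though how many is not stated. Skin markers were present: Krt5, Krt14 and Krt1 of the epidermis and Col1a1 and Dcn of the dermis were above background on all 8 arrays.

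Shh, the ligand, gave no signal that could be told from background in either group. Its probe, A_52_P49014, is printed 10 times on each array, and only 1 of the 80 spots was well above background, a spot on DTG 2 that the scanner software also flagged as an outlier. On all 8 arrays the median of the Shh spots lay between the 5th and 95th percentiles of the 308 negative-control spots, at 0.992 to 1.08 times their median. The median Shh signals were 9.40, 6.51, 4.97 and 7.38 on Control 1 to 4 and 19.2, 24.0, 21.7 and 18.0 on DTG 1 to 4, with negative-control medians of 8.71, 6.45, 4.95 and 7.41 and then 18.7, 24.2, 21.8 and 18.1. Every DTG value lay above every Control value, and the negative-control spots were separated in the same way. No fold change is therefore given for Shh, and it was not among the genes tested.

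**Figure D1:**
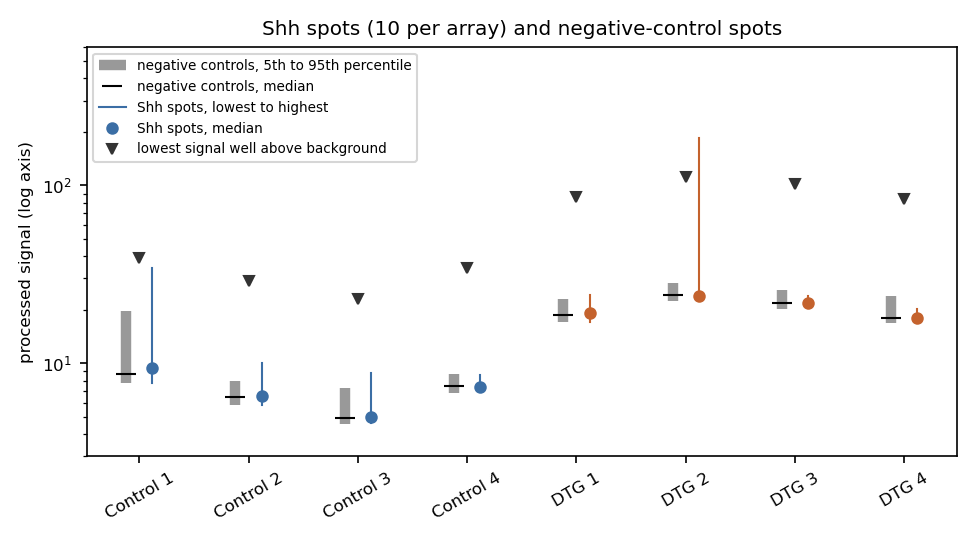
Processed signal on a log axis for each array, with the 5th to 95th percentile and median of the negative-control spots (grey bar and dash), the lowest, median and highest of the 10 Shh spots (coloured line and dot) and the lowest signal called well above background (triangle). Shh medians follow the negative controls on all 8 arrays, and 1 spot on DTG 2 rises above the triangle.

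The other 8 genes were well above background on all 8 arrays with every probe. Gli3, Boc and Cdon were lower in DTG skin, by 0.57, 0.34 and 0.57 on the log2 scale, whereas Gli1, Gli2, Ptch1, Smo and Gas1 did not pass the test. Thus 3 of the 8 members tested were called lower and 0 higher, where 21.3% of the 17740 genes tested were called lower and 11.2% higher, together 32.5%. Calls are at a limma adjusted p under 0.05 over all tested genes. Every DTG array lay below every Control array for 4 members (Gli1, Gli3, Ptch1 and Boc), and above for 0 members; the same held for 23.2% and 11.4% of all tested genes. With so few members these shares are a description and no test of the pathway. In whole skin, fewer cells of a type and less RNA per cell cannot be told apart.

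**Figure D2:**
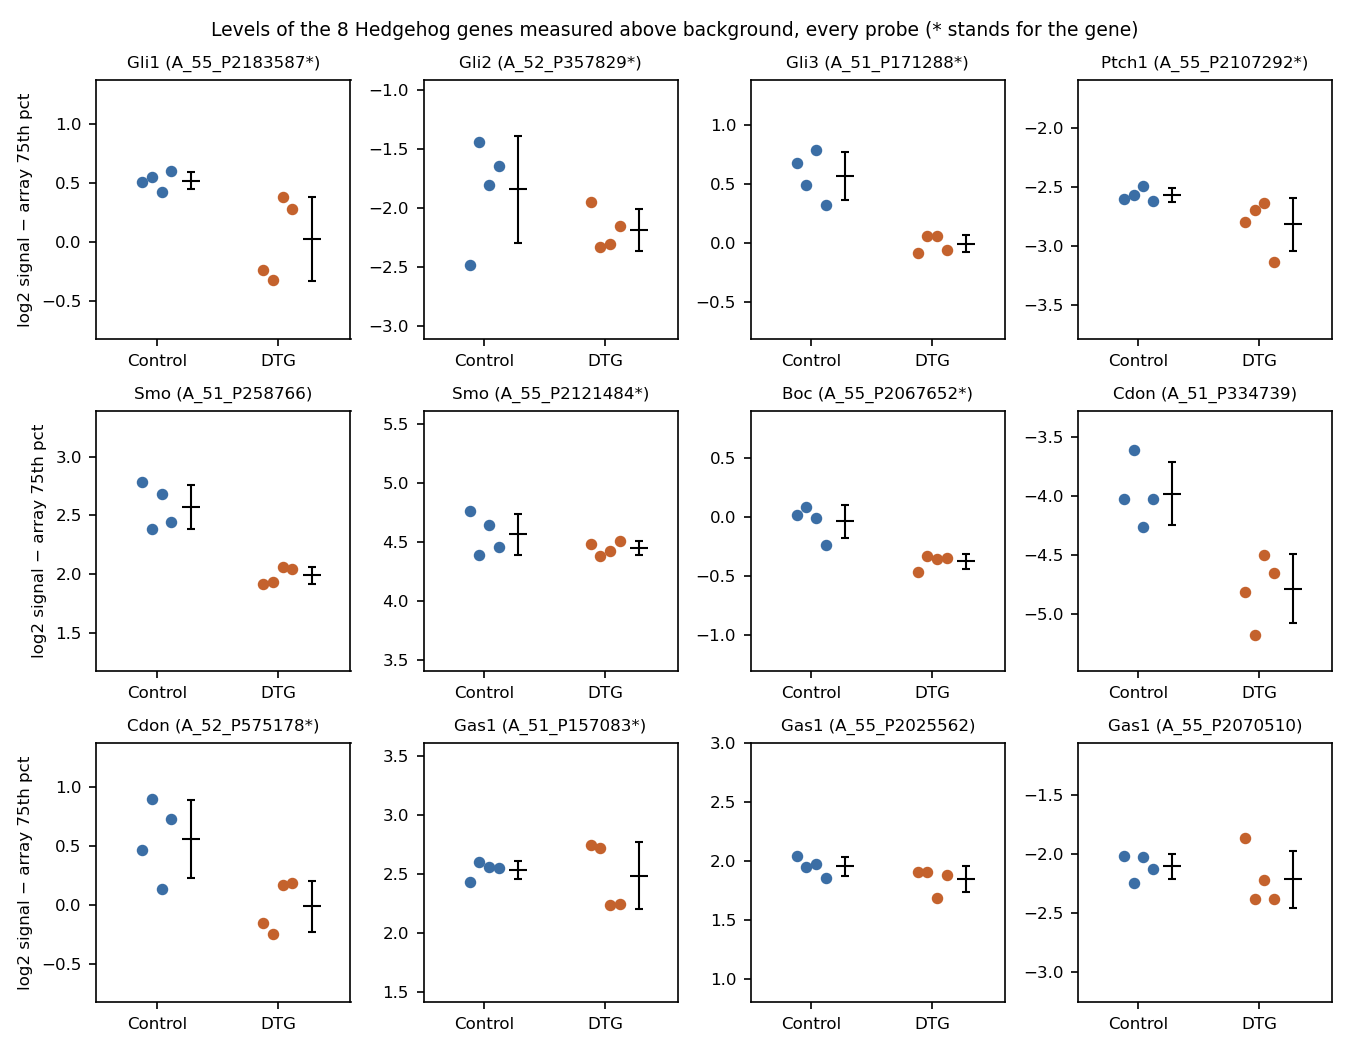
Level (log2 signal minus the array's 75th percentile) for each of the 12 probes of the 8 measured genes, with 1 dot per array, 4 arrays per group, and mean ± SD beside them. An asterisk marks the probe that stands for the gene; each panel spans the same height of 2.2 log2 units, and the Gli3, Boc, Gli1 and Ptch1 dots of DTG lie below all Control dots.

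Gli3, which acts mainly as the pathway's repressor when no ligand is present, had the smallest adjusted p among the probes that stand for the member genes. Its levels were 0.67, 0.48, 0.79 and 0.32 on Control 1 to 4 and -0.09, 0.05, 0.06 and -0.06 on DTG 1 to 4. The DTG values were tightly grouped and all below the lowest Control value. The means were 0.57 ± 0.21 (SD, n = 4) and -0.01 ± 0.08 (SD, n = 4), and Gli3 fell by 0.57 (SE 0.12, 1.49-fold, limma adjusted p = 0.0077). The call held without any single array, with adjusted p between 0.0055 and 0.023, and with Xist class in the fit.

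Among the members with a promoter window in RefSeq, Gli3 and Cdon were the ones called, and their 250 bases upstream of the annotated start are shown for that reason. They are read from RefSeq (GRCm38.p6) in the direction of transcription, with each GGGCGG, the GC box bound by Sp1-type factors, in capitals on either strand. The Gli3 window is chr13:15463473-15463722 on the plus strand and the Cdon window chr9:35451826-35452075 on the plus strand.
Gli3: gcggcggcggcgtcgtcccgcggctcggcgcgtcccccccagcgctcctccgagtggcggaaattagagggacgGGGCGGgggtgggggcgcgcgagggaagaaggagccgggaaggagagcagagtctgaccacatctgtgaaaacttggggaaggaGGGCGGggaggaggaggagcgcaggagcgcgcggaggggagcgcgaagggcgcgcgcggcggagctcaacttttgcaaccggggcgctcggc
Cdon: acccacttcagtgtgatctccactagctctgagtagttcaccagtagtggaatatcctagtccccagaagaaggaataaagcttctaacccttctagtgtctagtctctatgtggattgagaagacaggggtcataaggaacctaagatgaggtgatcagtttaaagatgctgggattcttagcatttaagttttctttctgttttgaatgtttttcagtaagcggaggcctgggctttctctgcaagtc
The 2 windows have little in common in base composition. That of Gli3 holds 34 CG dinucleotides, 72.8% G or C and 2 GC boxes, and that of Cdon 1 CG dinucleotide, 42.8% G or C and no GC box, against medians of 6 and 52.4% over 32851 windows of that length. A GC box was found in 32.7% of all windows and in those of Gli2, Gli3, Gas1 and Ptch1 but not of Smo or Cdon.

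The sequence that Gli proteins prefer, GACCACCCA, was searched on both strands of the same windows and was found in 0.225% of all of them and in none of the 6 members' windows. Its inner part ACCACCC, which overlaps the longer motif, occurred in 3.92% of windows. Of the members' windows only that of Gli2 held it, read on the opposite strand as GGGTGGT and beginning 205 bases before the start site. That stretch, chr1:119053808-119053834 on the minus strand of GRCm38.p6, is shown with the match in capitals.
Gli2: tccccctccaGGGTGGTgtccccccac
A match is only a run of letters, and no binding was measured here.

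Gli1, the Gli factor that is itself a target of the pathway, lay just outside the threshold. It read 0.51, 0.55, 0.42 and 0.60 on Control 1 to 4 and -0.24, -0.32, 0.38 and 0.28 on DTG 1 to 4. The groups did not overlap, but DTG 3 and DTG 4 came close to the Control arrays while DTG 1 and DTG 2 lay well below them. Its log2 fold change was -0.49 (SE 0.17, limma adjusted p = 0.052). It passed in 6 of 25 alternative analyses, among them those without DTG 3 (-0.61, limma adjusted p = 0.026), without DTG 4 (-0.58, limma adjusted p = 0.046) and with Xist class in the fit (-0.56, limma adjusted p = 0.030).

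Gli2, the main activator among the Gli factors, had its widest spread within Control (SD 0.45, n = 4). It read -2.48, -1.44, -1.80 and -1.64 on Control 1 to 4 and -1.95, -2.33, -2.31 and -2.15 on DTG 1 to 4. Control 1 was the lowest of all 8 arrays, and the groups overlapped because of it. The log2 fold change was -0.34 (SE 0.22, 95% interval -0.83 to 0.15, limma adjusted p = 0.25), and without Control 1 it was -0.56 (limma adjusted p = 0.021).

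Ptch1, which encodes the receptor and, like Gli1, responds to the pathway, read -2.60, -2.57, -2.49 and -2.62 on Control 1 to 4 and -2.80, -2.69, -2.64 and -3.14 on DTG 1 to 4. All DTG values were the lower ones, and DTG 4 stood farthest below Control. The log2 fold change of -0.25 (SE 0.12, 95% interval -0.52 to 0.03) did not pass (limma adjusted p = 0.15), and it passed in 0 of 25 alternative analyses.

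Of the co-receptors, Boc and Cdon fell and Gas1 did not pass. Boc, an immunoglobulin-type membrane protein that binds the ligand, read 0.02, 0.08, -0.01 and -0.24 on Control 1 to 4 and -0.47, -0.33, -0.36 and -0.35 on DTG 1 to 4. All DTG arrays were lower, with Control 4 nearest to them. Boc fell by 0.34 (SE 0.10, 1.26-fold, limma adjusted p = 0.028). The change kept its size when any array was left out (-0.41 to -0.30), but the call was lost without each of the 7 arrays other than Control 4, with adjusted p up to 0.070, and with slide column as a block (limma adjusted p = 0.068).

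Cdon, a close relative of Boc, fell on both of its probes. On the brighter probe, A_52_P575178, it read 0.46, 0.90, 0.13 and 0.73 on Control 1 to 4 and -0.15, -0.25, 0.16 and 0.18 on DTG 1 to 4. The groups overlapped, since Control 3 lay below DTG 3 and DTG 4. The fall was 0.57 (SE 0.18, 1.48-fold, limma adjusted p = 0.043). Its call was lost without each of the 7 arrays other than Control 3 (-0.63 to -0.45, limma adjusted p up to 0.11). It was also lost with slide column as a block (limma adjusted p = 0.091). Without Control 3 the log2 fold change was -0.71 and the call held (limma adjusted p = 0.019). On the dimmer probe, A_51_P334739, the levels were -4.02, -3.61, -4.26 and -4.03 in Control and -4.82, -5.18, -4.50 and -4.66 in DTG, without overlap. In a fit over all 23170 kept probes, of which 19.8% were called lower, this probe fell by 0.81 (SE 0.18, limma adjusted p = 0.012).

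Gas1, a lipid-anchored protein of the cell surface that also helps the ligand bind, did not pass on any of its 3 probes. On the brightest, A_51_P157083, it read 2.43, 2.61, 2.56 and 2.55 on Control 1 to 4 and 2.75, 2.72, 2.23 and 2.25 on DTG 1 to 4. The DTG values fell on both sides of Control: DTG 1 and DTG 2 were the highest of the 8 arrays and DTG 3 and DTG 4 the lowest. The same arrays were ordered the other way for Gli1, where DTG 1 and DTG 2 were the lowest. The log2 fold change was -0.05 (SE 0.14, 95% interval -0.38 to 0.28, limma adjusted p = 0.81), and it was -0.11 on each of the other probes. Those probes did not repeat this order of the DTG arrays. On A_55_P2070510 DTG 1 to 4 read -1.87, -2.39, -2.22 and -2.38, and on A_55_P2025562 they read 1.91, 1.91, 1.69 and 1.88.

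Smo, which carries the signal inward once Ptch1 releases it, gave different answers on its 2 probes. On A_55_P2121484, the brighter probe that stands for the gene, the levels were 4.76, 4.39, 4.64 and 4.45 in Control and 4.48, 4.38, 4.42 and 4.51 in DTG, and the groups overlapped. The log2 fold change there was -0.11 (SE 0.10, 95% interval -0.35 to 0.12, limma adjusted p = 0.42). On A_51_P258766 the levels were 2.78, 2.39, 2.68 and 2.44 in Control and 1.92, 1.94, 2.06 and 2.04 in DTG, with every DTG array below every Control array. This probe fell by 0.58 (SE 0.11, limma adjusted p = 0.0066 over all kept probes), and the mean of both probes was called too (-0.35, limma adjusted p = 0.039). No spot of any array was saturated.

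The difference between 2 probes of a gene within an array does not change when a constant is subtracted from the array's log2 signals, as in 75th percentile or spike-in scaling, but it can under quantile scaling (Smo probes at -0.51 and 0.13). For Smo (A_51_P258766 minus A_55_P2121484) it ranged from -2.01 to -1.96 on the 4 Control arrays and was -2.56, -2.44, -2.36 and -2.46 on DTG 1 to 4. It was almost constant in Control and lower on every DTG array, with a mean shift of -0.47 (exact two-sided permutation p = 0.0286, the smallest that 4 against 4 arrays allow, and 0.143 adjusted over 5 probe pairs). The Cdon probes shifted by -0.24 against each other with overlap (exact two-sided permutation p = 0.0857, adjusted 0.214), and the 3 Gas1 pairs by -0.06 to 0.00. Which part of the Smo transcripts each probe covers was not analysed here.

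**Figure D3:**
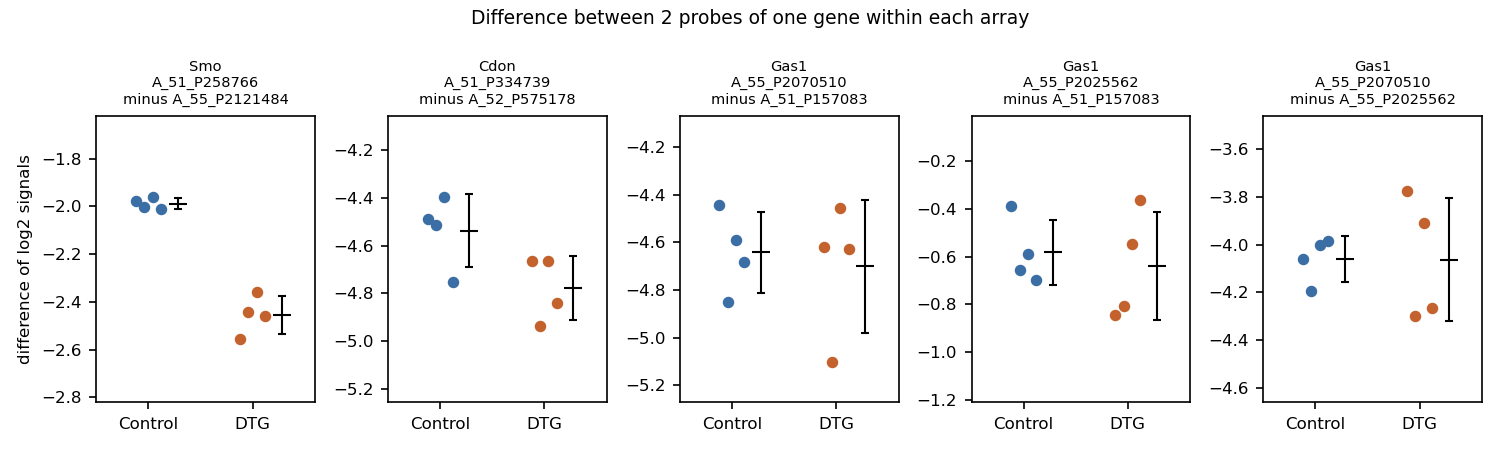
Difference of log2 signals between 2 probes of Smo, Cdon or Gas1 within each array, with 1 dot per array and mean ± SD (4 arrays per group); each panel spans 1.2 log2 units. The Smo difference sits near -1.99 in Control and -2.46 in DTG without overlap, while the Cdon and Gas1 groups overlap.

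How the arrays were scaled decided the direction of several members. The median log2 fold change of all tested genes was -0.15 with the 75th percentile and 0.33 with arrays scaled on spike-in spots, so part of each fall is shared by all genes. Relative to the median of all genes, Gli3 and Cdon were at -0.43 and -0.42, Gli1 at -0.35, Gli2 and Boc at -0.20 and -0.19, Ptch1 at -0.10, Smo at 0.03 and Gas1 at 0.10. On the spike-in scale Gli3, Cdon and Gli1 read -0.10, -0.10 and -0.02, Boc, Gli2 and Ptch1 0.13, 0.13 and 0.23, and Smo and Gas1 0.36 and 0.42, with 0 members called by limma and 1 at an unadjusted p under 0.05. With quantile scaling the 3 calls were again Gli3, Boc and Cdon, at -0.55, -0.33 and -0.57, while Smo and Gas1 lay above 0.

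**Figure D4:**
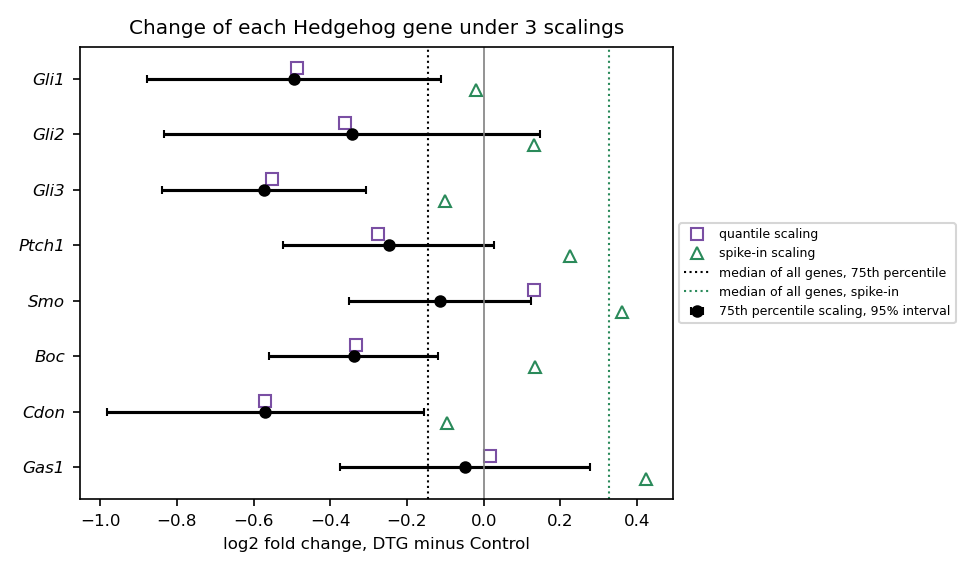
Log2 fold change of each measured member, DTG minus Control, with its 95% interval under 75th percentile scaling (dots), under quantile scaling (squares) and under spike-in scaling (triangles); dotted lines give the median of all genes under the first and the last. Gli3 lies at -0.57 with 75th percentile scaling and -0.10 with spike-in scaling, and Gas1 moves from -0.05 to 0.42.

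Differences between 2 members within an array were compared for all 28 pairs of the 8 genes, a comparison added after the values were seen. The groups did not overlap for 1 pair, Gli3 against the brighter Smo probe, whose difference shifted by -0.46 (exact two-sided permutation p = 0.0286, the smallest that 4 against 4 arrays allow, and 0.400 adjusted over the 28 pairs). A single pair cannot pass that adjustment with so few arrays, so the members are not shown to have changed alike.

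With Xist class in the fit Gli3 was at -0.52, Boc at -0.32 and Cdon at -0.68 (limma adjusted p = 0.0075, 0.044 and 0.0073). Within each Xist class the changes of the called members kept their sign. On the 5 arrays of high Xist Gli3 was at -0.43 (limma adjusted p = 0.065), and on the 3 of low Xist at -0.68 (limma adjusted p = 0.105), a fit that gives its lone DTG array the spread of the 2 Control arrays. Boc was at -0.31 and -0.33 in these classes, neither called, and Cdon at -0.75 (called, limma adjusted p = 0.035) and -0.54 (not called). The change did not differ between the classes beyond the spread for any of the 8 members (interaction in limma, adjusted p 0.68 to 0.98), and 0 of all tested genes passed that interaction, with 1132 genes and 0 members at an unadjusted p under 0.05.

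By the likeness rule, the genes whose levels over the 8 arrays were most like Gli3, among 14439 genes above background on all of them, were Hmgb3 (Pearson r = 0.992) and Pafah1b3 (r = 0.990). Those most like Boc were Speg (r = 0.994) and Dusp23 (r = 0.991), and those most like Cdon were Pde3b (r = 0.986) and Ccdc69 (r = 0.984). These coefficients are a description over 8 arrays and include the difference between groups.

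Beyond the 9 members, 53 genes of the pathway and the cilium were listed, of which 49 were tested. Of these, 13 were lower, 1 was higher and 35 did not pass, with a median log2 fold change of -0.18 against -0.15 for all genes. The share called lower, 26.5%, is near the 21.3% of all tested genes. The 13 include Gpc5 and Foxf2, which passed the filter through the Control arrays alone. Their Control means lay below the dimmest signal that counted as detected on DTG arrays, so their direction is not established. The counts and medians of their lists below include them, and the 21.3% counts such genes too. Lrp2, Scube1, Foxf1 and Foxl1 were too dim to be tested.

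Of the genes that make and release ligands, 2 of 7 were lower and 0 higher (median -0.28). Scube2, a secreted protein that carries lipid-modified ligand away from the producing cell, read -0.67, -1.09, -0.92 and -0.65 on Control 1 to 4 and -2.39, -2.11, -2.16 and -1.75 on DTG 1 to 4. The groups were far apart, and Scube2 fell by 1.27 (SE 0.16, limma adjusted p = 0.00094), with -0.80 on the spike-in scale. Its dimmer probe, at -0.55 (SE 0.19), did not pass (limma adjusted p = 0.057 over all kept probes). Scube3, a relative of Scube2, fell by 0.67 (SE 0.17, limma adjusted p = 0.017). The other ligand genes were measured and did not pass: Ihh, Indian hedgehog, was at -0.17 (SE 0.19), and Dhh, Desert hedgehog, a ligand made by Schwann cells, at -0.02 (SE 0.17).

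On the receptor side, 2 of 6 genes were lower and 0 higher (median -0.37). Gpc5, a glypican, was called lower (limma adjusted p = 0.0088), but it was above background on 0 of 4 DTG arrays. No fold is given for it, since its Control mean was below the dimmest signal that counted as detected on DTG arrays. Hhip, a decoy receptor induced by the pathway, read -3.20, -1.84, -3.00 and -2.35 in Control and -3.71, -3.79, -3.17 and -3.11 in DTG. Its log2 fold change of -0.85 (SE 0.31) did not pass (limma adjusted p = 0.065).

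Of the genes that relay the signal from Smoothened to the Gli proteins, 4 of 18 were lower and 0 higher (median -0.17). Dzip1, a basal body protein needed for ciliary Gli control, fell by 1.06 (SE 0.19, limma adjusted p = 0.0043). Of its other probes, the one above background on all arrays fell by 1.01. Evc, which partners Smoothened at the base of the cilium, fell by 0.84 (SE 0.16). Its dimmer probe, at -0.29, did not pass (limma adjusted p = 0.15 over all kept probes). Iqce, which anchors the Evc complex, fell by 0.76 (SE 0.20). Btrc, a ubiquitin ligase subunit that directs Gli3 processing, fell by 0.75 (SE 0.10), but its other probe read 0.05 (SE 0.11). Sufu, the cytoplasmic inhibitor of Gli proteins, was at 0.33 (SE 0.15, limma adjusted p = 0.14) and at 0.48 on its dimmer probe, which passed as higher (SE 0.16, limma adjusted p = 0.044 over all kept probes).

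Of 10 cilium genes, 2 were lower and 0 higher (median -0.16). The intraflagellar transport genes Ift27 and Ift88 fell by 0.60 (SE 0.14) and 0.38 (SE 0.10), and Ift88 read 0.09 on the spike-in scale. Of 10 target genes tested, 3 were lower and 1 higher (median -0.14). The cell cycle gene Ccnd1 fell by 0.43 (SE 0.12) and the survival gene Bcl2 by 0.28 (SE 0.08), and these read 0.04 and 0.20 on the spike-in scale. Foxf2, a forkhead factor of mesenchyme, was called lower too (limma adjusted p = 0.012); as for Gpc5, 0 of 4 DTG arrays detected it and no fold is given. Cdk6, a cell cycle kinase gene, rose from a mean level of -4.93 ± 0.40 (SD, n = 4) in Control to -3.93 ± 0.29 (SD, n = 4) in DTG (limma adjusted p = 0.011).

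**Figure D5:**
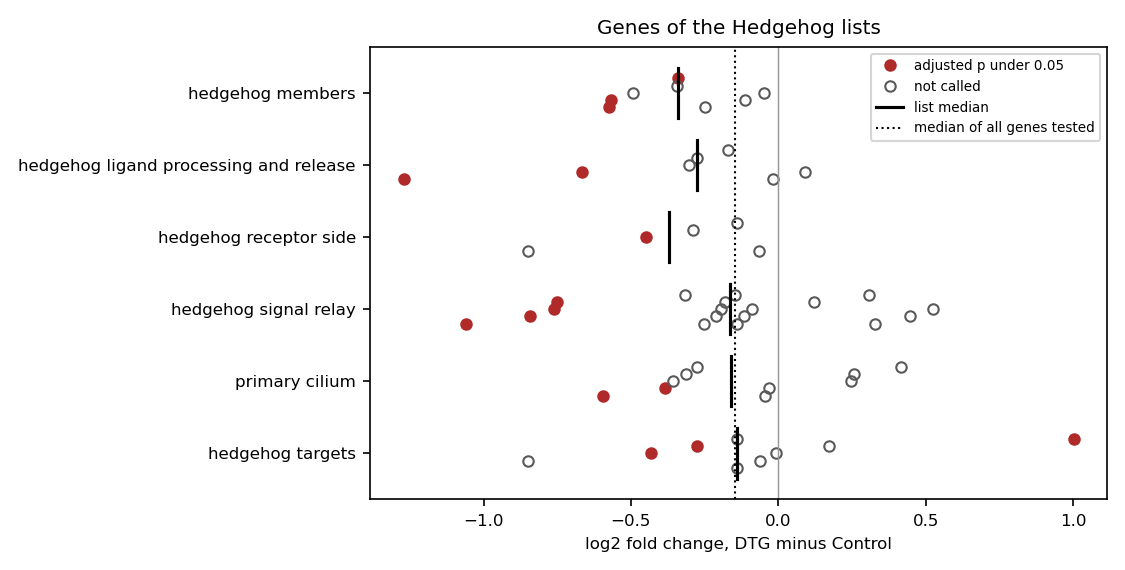
Log2 fold change, DTG minus Control, of the tested genes of the members and of 5 lists of pathway genes, with called genes filled, the list median as a bar and the median of all genes dotted at -0.15. The relay, cilium and target lists have medians next to that of all genes. Gpc5 and Foxf2, called lower but not above background on any DTG array, have no fold and are not drawn, though the list medians count them.

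Some markers of several skin cell types were lower as well, where 21.3% of all tested genes were, and their part in the results was not tested. On the spike-in scale the list medians were 0.15 for dermal fibroblasts, 0.08 for hair follicle stem cells, 0.04 for keratinocytes, 0.17 for adipocytes and -0.0034 for Schwann cells. Of dermal fibroblast markers 3 of 10 were lower and 0 higher, with a summed level of 7.23 to 7.67 in Control and 7.03 to 7.25 in DTG. Dpt, Lum and Dcn fell by 0.37, 0.31 and 0.34 but read 0.10, 0.17 and 0.13 on the spike-in scale. The 7 fibroblast markers not called ranged from -0.51 for Col1a1 to 0.36 for Pdgfra. With quantile scaling the median of the fibroblast list was -0.11, against -0.09 for all genes. Hair follicle stem cell markers gave 4 of 8 lower and 0 higher, with summed levels of 5.59 to 5.74 and 4.54 to 5.36. The 4.54 is that of DTG 2, where Krt15, the brightest of these markers, had no accepted spot and is missing from the sum. The sum of Control 1 likewise lacks Tcf7l1. Lhx2 fell by 0.55 (SE 0.09). Of 9 epidermal keratinocyte markers 4 were lower and 1 higher (7.04 to 7.45 and 6.78 to 7.06). Krt5 fell by 0.59, or by 0.11 on the spike-in scale, but its dimmer probe read 0.12 (SE 0.25). Ivl rose by 0.42, and by 0.62 on its dimmer probe. Schwann cell markers gave 5 of 8 lower (4.31 to 4.63 and 4.11 to 4.27) and adipocyte markers 5 of 8 lower (5.89 to 6.43 and 5.93 to 6.02). The adipocyte sum of 5.89 is that of Control 4, where Adipoq had no accepted spot and is missing, so the overlap of these ranges rests on an incomplete sum. Plin1, which coats the lipid droplets of adipocytes, fell by 1.35. The 3 adipocyte markers not called were Lep at 1.32 (SE 0.54), Lipe at 0.20 (SE 0.30) and Pparg at -0.13 (SE 0.12).

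Shh is made in the hair matrix of growing follicles and received by the dermal papilla. The median log2 fold changes of their marker lists were -0.29 and -0.24, against -0.15 for all genes. On the spike-in scale the list medians were 0.18 and 0.23, against 0.33 for all genes. Of 12 hair matrix and shaft markers 0 were lower and 1, Tchh, was higher, by 1.30 (SE 0.17), with summed levels of 3.38 to 3.92 in Control and 3.65 to 3.77 in DTG. These sums rest mostly on Gata3, the brightest of the list, with means of 3.26 in Control and 3.09 in DTG. The hair keratin genes were dim, and Krt33a was above background on 2 and Krt35 on 1 of the 4 DTG arrays. Lef1 was at -0.58 (limma adjusted p = 0.053). Of 10 dermal papilla markers 1 was lower and 1 higher (3.63 to 3.81 and 3.58 to 4.01): Bmp4 fell by 0.91 and Alpl rose by 1.42. Skeletal muscle, melanocyte, endothelial and leukocyte lists had 2 of 8, 2 of 6, 1 of 6 and 1 of 7 lower and 0 higher, and the sebaceous gland list 2 of 8 higher and 0 lower. Only genes above background on at least 3 of 4 arrays of a group were tested, so no tested marker could be below background on all 8 arrays.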

How the data were processed

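The authors' deposited scanner tables hold spot intensity on a linear scale, read with Agilent Feature Extraction. The file headers give its version as 11.5.1.1 and the build as mm9, while the submitters' processing notes give 10.7. The deposited value table equals the mean processed signal within a relative tolerance of 0.001 for 99.6% of values and served as an alternative. Accessions were matched to RefSeq (GRCm38.p6) for names only. Outlier-flagged spots were left out and a probe's spots averaged as log2 signals. The 75th percentile of all non-control probes was then subtracted within every array. Probes well above background on at least 3 of 4 arrays of a group were kept, and the brightest stood for its gene. Groups came from the tissue labels, and replicate numbers name samples and match the slide column. The groups were compared with limma 3.58.1 in R 4.3.3 (Benjamini-Hochberg over 17740 genes). Spread and number of arrays limit precision: the median SE was 0.14. Data were also simulated with the genes' own means and spreads. In these the fit called 68% of genes lowered by 1 and 18% of those lowered by 0.5 (log2). Only 50 genes were given each of the shifts -1, -0.5, 0.5 and 1, and 17540 were left unchanged. In the real data 5757 genes were called, which makes the adjustment less strict, so the simulated shares do not give the power here. Summed levels are log2 of added linear signals. Named genes were the members, Msi1, Xist, Eif2s3y, up to 4 of each list by smallest p and, for each called member, the 2 genes most like it. Further genes of the lists were named where they help to read a list. Members and lists were chosen with earlier results of these data known. Alternatives covered scaling, background, filters, probes, Xist class, slide column and single arrays left out. Flg and Cd68 were not analysed here. Some genes of the lists are counted but not reported here by name.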

Additional observations from a re-analysis of the deposited data

Results flagged for a closer look

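On the Gas1 probe A_55_P2025562, which does not stand for the gene, DTG 3 read 1.69 while the other DTG arrays read 1.88 to 1.91. Its distance to the nearest of them was 0.878 of the range of the group, above Dixon's 95% critical value for 4 samples. This was 1 of 26 groups of 4 examined over the 13 member probes, a number among which chance alone can be expected to flag some.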

How the results depend on the processing

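The call of Gli3 held in 22 of 25 alternative analyses, Boc in 13, Cdon in 12 and Gli1 was called in 6, with ranges of -0.68 to -0.10, -0.41 to 0.13, -0.75 to -0.10 and -0.79 to -0.02. Of the genes called, 65.6% were lower in DTG, against 41.6% without scaling and 7.09% with spike-in scaling. Without scaling 3835 genes, 1 member and 6 pathway genes were called, against 5757, 3 and 14. Spike-in scaling called 0 members and 9 pathway genes, 7 of them higher. The arrays of high Xist alone gave 2629 genes, 1 member and 6 pathway genes, and those of low Xist 736, 0 (2 at an unadjusted limma p under 0.05) and 2; these fits hold fewer samples. With the slide column, which pairs a Control with a DTG array, as a block 1 member, Gli3, was called, and Boc (adjusted p 0.068) and Cdon (0.091) were not. Leaving out single arrays gave 4074 to 5170 genes, 1 to 2 members and 9 to 15 pathway genes. The sign turned for Smo with quantile scaling (0.13), without scaling (0.0095), with spike-in scaling (0.36) and with high Xist alone (0.049). For Gas1 it turned with quantile scaling (0.016), without scaling (0.074), with spike-in scaling (0.42), with low Xist alone (0.22), and without DTG 3 (0.035) or DTG 4 (0.031), in a range of -0.14 to 0.035 over single arrays left out. With spike-in scaling it also turned for Gli2 (0.13), Ptch1 (0.23) and Boc (0.13). Except for the fits with fewer samples, the cause was not tested. Without a filter on dim probes Shh entered the fit and was called higher, though no DTG array was above background. The 75th percentile over spots was added after the data were seen. The labels number no replicates. The numbers given to the arrays here match the slide column, so the block on slide column was also a pairing by those numbers, and no other pairing was made.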
